A study of Homo sapiens with 6 samples.

Results

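The Kruppel-like factor (KLF) transcripts were examined after knockdown of the protein kinase D gene PRKCN in MM.1S, an established myeloma line of human origin. The 10 genes described are KLF2, KLF3, KLF4, KLF6, KLF7, KLF9, KLF10, KLF11, KLF13 and KLF16. They were taken by symbol from a count table of 21850 genes, and all 10 were listed and passed the filter on low counts. They were chosen by symbol with their log2 fold changes in the same comparison in view, so their levels and differences are given as a description, without a test. RNA-seq was available for 3 shNT libraries, wild-type cells infected with a scramble hairpin, and for 3 shPRKCN libraries, cells infected with a hairpin against PRKCN, all collected on day 3 after lentiviral transduction. The model is 1 cell line, the labels do not name the PRKCN hairpin that was sequenced, and the study's methods describe sorting of transduced cells by flow cytometry for functional assays without repeating it for the sequenced cells. No source states that the libraries of a group were separate cultures. A p-value therefore sets a difference between groups against the spread between these libraries, and that spread may be technical.

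KLF proteins are transcription factors that bind GC-rich elements and CACCC boxes through zinc fingers at their carboxyl end, and they share these elements with the Sp factors. They differ in the partners that their amino-terminal regions recruit. One subgroup (KLF3, KLF8 and KLF12) represses through CtBP, another (KLF1, KLF2, KLF4, KLF5, KLF6 and KLF7) mostly activates through acetyltransferases, and a further one (KLF9, KLF10, KLF11, KLF13, KLF14 and KLF16) represses through SIN3. In lymphoid cells KLF2 is known for quiescence and homing, and in myeloma it has been connected with the factor IRF4 and the histone demethylase KDM3A. Protein kinase D phosphorylates class IIa histone deacetylases, which otherwise hold MEF2 factors in check, and MEF2 factors downstream of the kinase ERK5 activate KLF2.

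The targeted gene, listed under its current symbol PRKD3, was at 1262 ± 41.7 CPM (counts scaled to library size with TMM factors; SD, n = 3) in shNT libraries and at 517 ± 23.4 CPM in shPRKCN libraries, a log2 fold change of -1.29 (SE 0.034; edgeR quasi-likelihood test, Benjamini-Hochberg adjusted p = 8.2e-43). Library totals ran from 35625564 to 37730003 counts. A gene was counted as past both limits when its adjusted p was under 0.05 and the absolute value of its log2 fold change exceeded 0.58. Of 13971 genes tested, 16.7% were past both limits, 6.15% as higher and 10.6% as lower, while 54.2% passed the adjusted p alone. The 9 plasma cell markers that were checked were all tested and summed to 9207 to 9327 CPM in shNT and 7920 to 8044 CPM in shPRKCN libraries. Most of that sum was JCHAIN, at 5358 ± 37.7 and 5412 ± 109 CPM (SD, n = 3). Of the 9 markers, 4 were past both limits and fell, namely IRF4 (-1.85), XBP1 (-1.28), TNFRSF17 (-1.13) and SLAMF7 (-0.97 on the log2 scale), and the median log2 fold change of the 9 was -0.54. These lower markers moved with KLF2 and KLF4, and their part in the results was not tested. By the adjusted p alone, 6 of the 9 fell and SDC1 rose (log2 fold change 0.18, SE 0.033), beside 27.8% and 26.5% of all genes. CD38 (-0.012) and JCHAIN (0.015) did not pass. Markers of other cell types summed to 14.4 to 16.4 CPM in shNT and 28.7 to 33.7 CPM in shPRKCN libraries, most of it from CD3E. Of these 9 markers, COL1A2 was not listed, and CD3D, CD14, LYZ and COL1A1 had 9 or fewer counts in every library. The other 4 were tested. CD3E was past both limits as higher (log2 fold change 1.40) and HBB as lower (-1.65), while KRT8 and KRT18 did not pass the adjusted p. In bulk RNA, fewer cells that express a gene and less RNA per cell cannot be told apart.

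Among the KLF genes, KLF2 and KLF4 were far lower in shPRKCN than in shNT libraries, and the other 8 differed by much smaller amounts in both directions. KLF2 was at 37.9% of its shNT level and KLF4 at 26.1%. KLF3, KLF7, KLF13 and KLF16 were higher in every shPRKCN library than in any shNT library, KLF9 and KLF10 were lower in every shPRKCN library, and KLF6 and KLF11 overlapped between groups. The median log2 fold change over the 10 genes was 0.021, beside 0.0012 over all genes tested. Groups that do not overlap are common in these data, since 58.8% of the tested genes had them, 29.0% as higher and 29.8% as lower. The counts among the KLF genes, 8 of 10 without overlap and 2 of 10 past both limits (16.7% of all genes), are read no further, since the genes were chosen with these values in view.

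**Figure D1:**
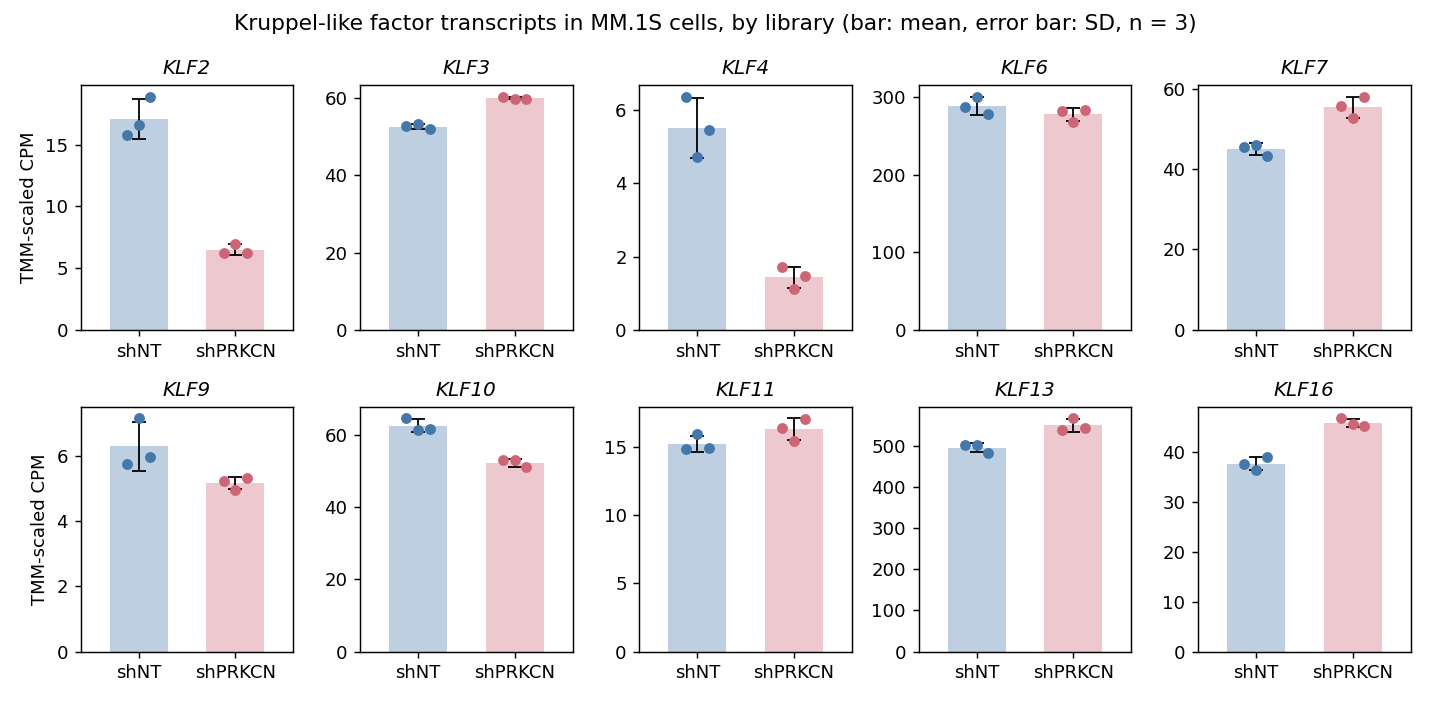
CPM (TMM-scaled) of the 10 KLF transcripts in each library, 1 panel per gene with its own axis from 0; points are libraries, bars are group means and error bars are SD (n = 3 per group). KLF2 and KLF4 separate widely, with 6.24 to 6.99 against 15.8 to 18.9 CPM for KLF2 and 1.13 to 1.71 against 4.73 to 6.37 CPM for KLF4.

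KLF2, an activator that restrains lymphocyte division and guides homing, lies on chromosome 19 (16324826 to 16328685, RefSeq annotation of GRCh38.p14). It was at 15.8, 16.6 and 18.9 CPM in the shNT libraries and at 6.24, 6.99 and 6.24 CPM in the shPRKCN libraries, from 559, 612 and 709 counts against 233, 260 and 237 counts. The lowest shNT library was far above the highest shPRKCN library. The group means were 17.1 ± 1.61 and 6.49 ± 0.435 CPM (SD, n = 3), and the log2 fold change was -1.40 (SE 0.099). It lay between -1.46 and -1.32 in every fit to counts, both ends being fits with 1 shNT library left out. On the log2(FPKM + 1) scale, where the added 1 shrinks the change of low genes, the difference was -1.08.

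KLF4, a factor of epithelial and myeloid differentiation that arrests the cell cycle in several cell types, lies on chromosome 9 (107484852 to 107489769). It was at 6.37, 4.73 and 5.45 CPM in shNT libraries and at 1.71, 1.13 and 1.47 CPM in shPRKCN libraries. KLF4 was thin in counts, with 225, 174 and 204 against 64, 42 and 56, so its relative spread was among the larger of the family, with a coefficient of variation of 14.9% and 20.4%. The group means were 5.52 ± 0.822 and 1.44 ± 0.294 CPM (SD, n = 3), and the log2 fold change of -1.93 (SE 0.186) had the most negative value and the largest SE of the 10. It was -2.08 without the first shPRKCN library and -1.79 without the second, the ends of its range over fits to counts, and -0.92 on the log2(FPKM + 1) scale.

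The 250 bases before the start of KLF2 and KLF4 are shown because these genes differed most, and because MEF2 factors and GC-binding factors are known to act on KLF promoters. Both are from RefSeq on GRCh38.p14 and read 5′ to 3′ on the strand of the gene, KLF2 at chr19:16324576-16324825 (plus strand) and KLF4 at chr9:107489770-107490019 (minus strand). Capitals mark GC boxes (GGGCGG or its complement CCGCCC) and the MEF2 pattern (CTA, any 4 bases, TAG), which MEF2 factors can bind.
KLF2: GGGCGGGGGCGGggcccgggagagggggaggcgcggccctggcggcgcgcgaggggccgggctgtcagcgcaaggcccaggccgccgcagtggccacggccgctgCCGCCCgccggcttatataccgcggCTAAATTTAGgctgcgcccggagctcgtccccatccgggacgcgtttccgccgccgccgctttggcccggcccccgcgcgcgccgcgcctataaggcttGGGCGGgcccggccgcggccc
KLF4: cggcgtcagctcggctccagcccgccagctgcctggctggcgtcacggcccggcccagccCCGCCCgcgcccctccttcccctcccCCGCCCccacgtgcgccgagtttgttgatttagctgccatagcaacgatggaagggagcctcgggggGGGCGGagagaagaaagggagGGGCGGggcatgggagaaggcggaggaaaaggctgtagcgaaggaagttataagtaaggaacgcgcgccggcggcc
The KLF2 stretch held 4 GC boxes and 1 copy of the MEF2 pattern, which began 120 bases before the start. The KLF4 stretch held 4 GC boxes and no copy of the MEF2 pattern. No peak or factor binding was measured in these samples, so the matches describe the letters alone.

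Promoter windows from 250 bases before to 50 bases after a start were taken for 8 of the 10 KLF genes, 12 windows in all, without KLF3 and KLF10. GC boxes were in 8 of the 12 windows and in 7 of the 8 genes, beside 45% of 35116 windows of all genes off chromosome 8. KLF9 was the exception, and its window had 32.7% GC, while windows of KLF2, KLF4 and KLF16 reached 80.7%, 69% and 86% and the median over all windows was 58.7%. The MEF2 pattern was in 2 of the 12 windows, those of KLF2 and KLF11, beside 2.73% of all windows. In KLF11 it began 18 bases before the start. The E-box CACGTG, bound by MYC and related factors, was in 4 windows, 1 each for KLF4, KLF6, KLF7 and KLF11, beside 7.26% of all windows. Each search covered both strands. CACCC boxes (CACCC or GGGTG) were in 5 of the 12 windows, beside 59.9% of all windows. The cyclic AMP response element TGACGTCA was in 1 window, of KLF11, beside 1.85%. The AP-1 element TGANTCA, in 7.71% of all windows, and the patterns of GAAA or GGAA, any 2 bases and GAAA (3.57% and 2.82%), which interferon regulatory factors can bind, were in 0 of the 12 windows.

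Among the other genes of the mostly activating subgroup, KLF6 and KLF7 had much smaller differences. KLF6, an early-response factor found in most tissues (chromosome 10, 3775996 to 3785209), was at 288, 301 and 278 CPM in shNT libraries and at 282, 268 and 284 CPM in shPRKCN libraries. These values overlap, and the log2 fold change was -0.054 (SE 0.035). It ran from -0.08 without the third shNT library to -0.018 without the second, the ends of its range over fits to counts. KLF7, best known for axon growth in neurons (chromosome 2, 207074137 to 207173851), was at 45.5, 46 and 43.2 CPM in shNT libraries and at 55.6, 52.6 and 57.9 CPM in shPRKCN libraries. All 3 shPRKCN libraries were above the shNT libraries, and the log2 fold change of 0.30 (SE 0.051) was the most positive of the 10.

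KLF3, the CtBP-binding repressor in the set and a factor of B cell and erythroid maturation, was slightly higher after knockdown (chromosome 4, 38664199 to 38701517). It was at 52.7, 53.1 and 51.8 CPM in shNT libraries and at 60.3, 59.8 and 59.7 CPM in shPRKCN libraries, with the tightest spread of the 10 genes. Its log2 fold change was 0.19 (SE 0.048). An antisense transcript, KLF3-AS1, overlaps KLF3 and had 15 to 41 counts per library, against 1860 or more for KLF3. Whether the counting used strand is not given in the sources used here, so reads of the pair cannot be told apart. The same limit applies where KLF9 overlaps KLF9-DT, KLF13 overlaps LOC105370939 and PRKD3 overlaps NDUFAF7, all of them listed genes. KLF9-DT had at most 2 counts in a library.

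The SIN3-binding subgroup split, with KLF13 and KLF16 above, KLF9 and KLF10 below, and KLF11 overlapping. KLF13, a regulator of the chemokine gene RANTES in lymphocytes (chromosome 15, 31326835 to 31435665), was at 501, 501 and 483 CPM in shNT libraries and at 537, 566 and 543 CPM in shPRKCN libraries, a log2 fold change of 0.15 (SE 0.033). KLF16, a GC-box factor that can displace Sp1 (chromosome 19, 1852399 to 1876536), was at 37.6, 36.3 and 38.9 CPM and at 46.7, 45.5 and 45.1 CPM, a log2 fold change of 0.28 (SE 0.053). For both genes the groups lay apart by more than the spread within either group. KLF10, an early gene of the TGF-β response, was at 64.5, 61.3 and 61.6 CPM in shNT libraries and at 52.9, 52.9 and 51 CPM in shPRKCN libraries, a log2 fold change of -0.26 (SE 0.048). KLF11, its nearest relative and also induced by TGF-β (chromosome 2, 10043550 to 10054836), was at 14.8, 15.9 and 14.9 CPM and at 16.4, 15.4 and 17 CPM, a log2 fold change of 0.10 (SE 0.081). The values of this pair of related factors therefore had opposite signs, with KLF10 apart between groups and KLF11 overlapping. KLF9, a target gene of glucocorticoid and thyroid hormone receptors (chromosome 9, 70384604 to 70414657), was at 5.75, 7.15 and 5.98 CPM in shNT libraries and at 5.22, 4.95 and 5.32 CPM in shPRKCN libraries. Its log2 fold change of -0.29 (SE 0.132) leaned on the second shNT library, and was -0.18 without it and -0.35 without the first.

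**Figure D2:**
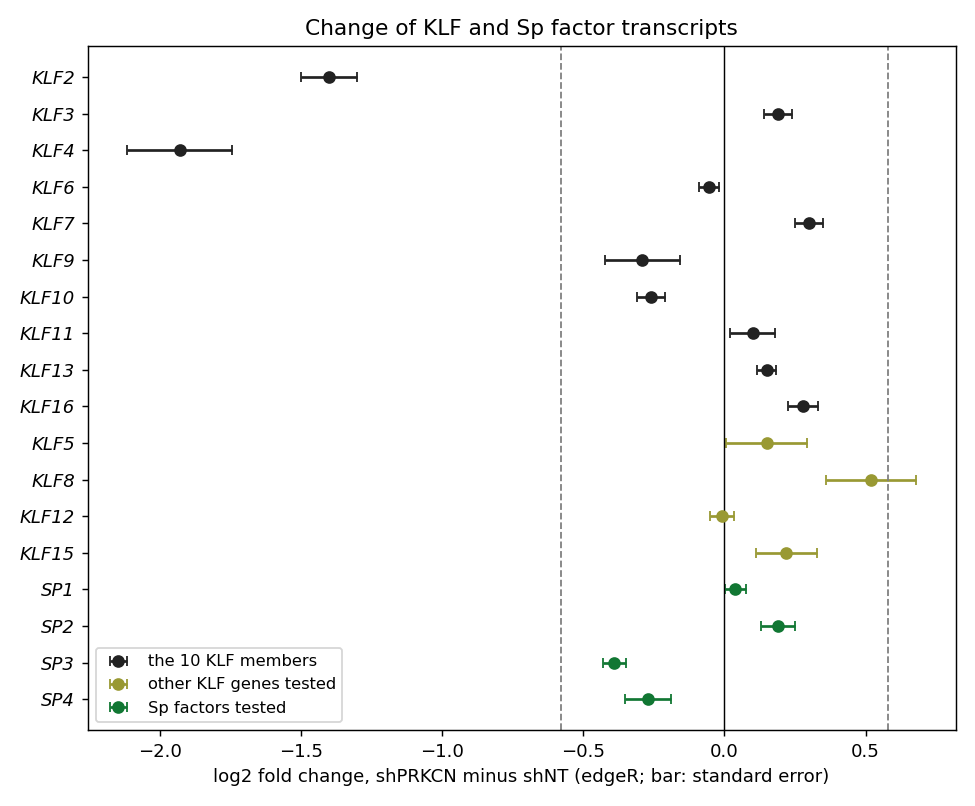
Log2 fold change (shPRKCN minus shNT, edgeR) of the KLF members, the other KLF genes tested and the Sp factors tested, with bars for the standard error. KLF4 (-1.93) and KLF2 (-1.40) lie far to the left, and the other KLF and Sp genes lie between -0.39 (SP3) and 0.52 (KLF8).

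Compared per length, the family in these cells was carried by KLF13 and KLF6, and its summed level hardly moved. In shNT libraries KLF13 was at 68.8 ± 1.47 FPKM (fragments scaled to gene length and library size, as the authors deposited them; SD, n = 3) and KLF6 at 62.4 ± 2.54 FPKM. KLF10 (19.5 ± 0.519), KLF16 (12.9 ± 0.431), KLF3 (8.78 ± 0.12), KLF2 (6.03 ± 0.567), KLF11 (3.49 ± 0.152), KLF7 (2.58 ± 0.0853), KLF4 (1.8 ± 0.265) and KLF9 (1.2 ± 0.146 FPKM) followed in that order. Every pair of neighbours in this order was apart in range. In shPRKCN libraries KLF2, at 2.32 ± 0.13 FPKM, stood below KLF11 at 3.78 ± 0.223 and KLF7 at 3.23 ± 0.187 FPKM, so it moved from place 6 to place 8. KLF4, at 0.477 ± 0.101 FPKM, stood below KLF9 at 0.999 ± 0.0474 FPKM and was the lowest of the 10. KLF10 (16.5 ± 0.294) and KLF16 (15.9 ± 0.366 FPKM) were the neighbours whose ranges overlapped there. No place in either order depended on a single library.

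The 10 genes summed to 187 ± 3.38 FPKM in shNT and 192 ± 2.07 FPKM in shPRKCN libraries, with overlapping ranges of 184 to 191 and 189 to 193 FPKM. KLF13 and KLF6 together made up 69.2% to 70.8% of that sum in shNT and 71.8% to 72.4% in shPRKCN libraries. The share of KLF2 was 2.96% to 3.62% in shNT and 1.16% to 1.3% in shPRKCN libraries, and that of KLF4 was 0.813% to 1.11% and 0.195% to 0.296%. Within a library, KLF2 stood above KLF4 by a ratio of FPKM of 2.68, 3.79 and 3.74 in shNT and 3.92, 6.67 and 4.56 in shPRKCN libraries. The shPRKCN ratios were all above the shNT ratios, by a margin in the closest pair that was smaller than the spread within either group.

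**Figure D3:**
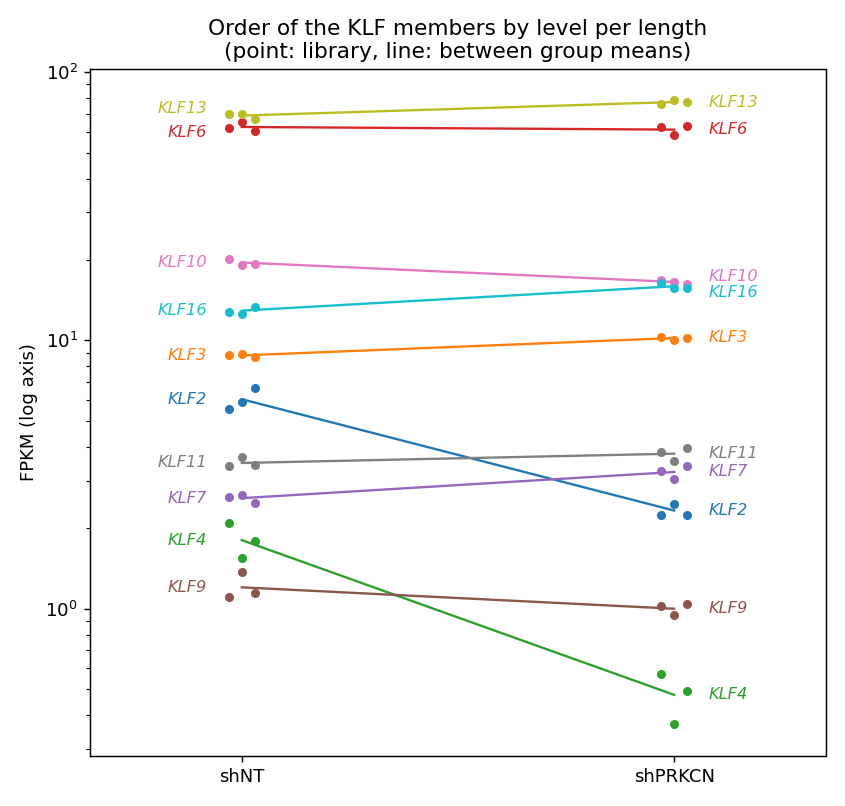
FPKM of the 10 KLF genes in each library on a log axis, with lines between group means. KLF13 and KLF6 stay near the top, KLF2 crosses below KLF11 and KLF7 (6.03 to 2.32 FPKM) and KLF4 crosses below KLF9 (1.8 to 0.477 FPKM).

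The remaining KLF symbols were looked up for completeness, also as a description. KLF14, KLF17 and KLF18 were not listed, which was not taken as a level of 0, and KLF1, the erythroid factor, had 0 to 12 counts per library and was not tested. The partners of KLF3 in the CtBP-binding subgroup differed from one another. KLF8 was at 3.43, 3.94 and 2.8 CPM in shNT and 4.63, 5.35 and 4.63 CPM in shPRKCN libraries, apart between groups with a log2 fold change of 0.52 (SE 0.159). Without the second shNT library it was 0.65, over the fold limit, and without the third it was 0.40. KLF12 was at 82.7 ± 1.44 and 82.3 ± 2.06 CPM (SD, n = 3), a log2 fold change of -0.0073 (SE 0.043). KLF5, which drives proliferation in epithelia, and KLF15, a metabolic regulator, overlapped between groups with log2 fold changes of 0.15 (SE 0.143) and 0.22 (SE 0.109). That of KLF5 was 0.03 without the third shPRKCN library and 0.27 without the second.

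Of the Sp factors, which bind the same GC-rich elements, SP3 fell and SP1 did not pass the test. Among 9 symbols, SP8 was not listed, SP5, SP6, SP7 and SP9 had 8 or fewer counts per library, and 4 were tested. None was past both limits by edgeR, by DESeq2 or by limma on log2(FPKM + 1), 3 had an unadjusted edgeR p under 0.05, and the same 3 passed the adjusted p, beside 54.2% of all genes. SP3, which can activate or repress, was at 118, 118 and 122 CPM in shNT libraries and at 92, 89.3 and 91.3 CPM in shPRKCN libraries, a log2 fold change of -0.39 (SE 0.040, edgeR adjusted p = 2.8e-13). All shPRKCN libraries were below all shNT libraries. SP1, the ubiquitous activator, was at 173 ± 8.15 and 178 ± 3.83 CPM (SD, n = 3), a log2 fold change of 0.039 (SE 0.038, edgeR adjusted p = 0.39). SP2 (0.19, SE 0.060, edgeR adjusted p = 0.0064) and SP4 (-0.27, SE 0.082, edgeR adjusted p = 0.0043) both depended on the libraries used. The adjusted p of SP2 was 0.063 without the third shNT library, and that of SP4 was 0.097 without the second shNT library and 0.084 without the second shPRKCN library.

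Regulators known to act on KLF2 or other KLF genes were taken from a list of 14 genes that covers the ERK5 pathway, MEF2 factors, class IIa histone deacetylases, FOXO factors and KDM3A. All 14 were tested, 2 were past both limits and both fell, beside 10.6% of all genes as lower. By the adjusted p alone, 3 rose, 6 fell and 5 did not pass, beside 26.5% and 27.8% of all genes as higher and lower, and the list's median log2 fold change was -0.05. HDAC9, a class IIa deacetylase and repressor of MEF2, fell from 52.7 ± 0.497 to 26.9 ± 1.73 CPM (log2 fold change -0.97, SE 0.056, edgeR adjusted p = 1.4e-24). KDM3A, a demethylase of histone H3 lysine 9 reported to maintain KLF2 and IRF4 in myeloma, fell from 325 ± 7.15 to 195 ± 3.17 CPM (log2 fold change -0.74, SE 0.035, edgeR adjusted p = 5.8e-29). Of the 4 class IIa deacetylase genes listed, 1 fell, 1 rose and 2 did not pass the adjusted p. The following genes were singled out after their values were seen. MEF2A (-0.44, SE 0.053), MEF2C (-0.28, SE 0.033) and MEF2D (-0.18, SE 0.037) fell at edgeR adjusted p = 9e-11, 2.1e-11 and 2.1e-05. MAPK7, which encodes ERK5, fell from 12.9 ± 0.512 to 9.72 ± 0.532 CPM (log2 fold change -0.40, SE 0.096, edgeR adjusted p = 0.00028). In the other direction, the class IIa gene HDAC4 rose by 0.28 (SE 0.053, edgeR adjusted p = 7.2e-06) and MAP3K3, a kinase upstream of ERK5, by 0.30 on the log2 scale (SE 0.052, edgeR adjusted p = 8.4e-07). FOXO3, of a family known to induce KLF2 in T cells, rose by 0.33 on the log2 scale (SE 0.033, edgeR adjusted p = 2e-13). FOXO1, of the same family, overlapped between groups, with a log2 fold change of -0.092 (SE 0.104, edgeR adjusted p = 0.47).

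IRF4, the myeloma factor linked with KLF2, fell from 624 ± 12.5 to 173 ± 3.19 CPM (SD, n = 3), a log2 fold change of -1.85 (SE 0.035, edgeR adjusted p = 5.7e-52). Side by side, KLF2 was at 37.9% of its shNT level, with the groups of both genes far apart. The transcripts whose values over the 6 libraries were most like those of KLF2 were MND1, DDR2 and PFKFB4, out of 11658 genes compared. Likeness was the root mean square difference of log2 CPM after centring on the shNT mean, and it was 0.0613, 0.0675 and 0.0753 for these genes, with log2 fold changes of -1.39, -1.38 and -1.38. Since the measure was computed on the libraries that define the contrast, it describes equal size of change and nothing further.

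Of the cofactors that KLF proteins recruit, the acetyltransferase KAT2B and the SIN3 subunit SAP30 fell, while several others rose by less. Of 10 listed genes, 9 were tested and CTBP2 was not, 2 were past both limits as lower, and by the adjusted p alone 5 rose and 2 fell, with a median log2 fold change of 0.15. Over all genes, 10.6% were past both limits as lower, and 26.5% rose and 27.8% fell by the adjusted p alone. KAT2B (PCAF) fell from 87 ± 0.933 to 31 ± 1.16 CPM (log2 fold change -1.49, SE 0.049, edgeR adjusted p = 1.6e-37). SAP30 fell from 36.2 ± 4.65 to 15.3 ± 1.37 CPM (log2 fold change -1.25, SE 0.073, edgeR adjusted p = 3.8e-24). Named after their values were seen, SIN3B, a scaffold of the SIN3 complex, rose by 0.53 on the log2 scale (SE 0.049, edgeR adjusted p = 5.8e-15) and the deacetylase gene HDAC1 by 0.37 (SE 0.036, edgeR adjusted p = 4.1e-14). Both stayed under the fold limit. The acetyltransferase genes EP300 (0.18, SE 0.037) and CREBBP (0.15, SE 0.042), also named after their values were seen, rose and stayed under it too. So did CTBP1 (0.15, SE 0.037), which encodes a CtBP corepressor and was named in the same way.

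Of the ubiquitin ligases that act on KLF proteins, all 8 were tested, and 0 were past both limits by edgeR, by DESeq2 or by limma on log2(FPKM + 1), beside 16.7% of all genes by edgeR. An unadjusted edgeR p under 0.05 was reached by 3, and the same 3 passed the adjusted p, 1 as higher and 2 as lower, beside 54.2% of all genes. Named after their values were seen, VHL, which targets KLF4, rose by 0.25 (SE 0.040, edgeR adjusted p = 1.4e-07) and FBXW7, which targets KLF2 and KLF5, fell by 0.36 (SE 0.058, edgeR adjusted p = 1.6e-07) on the log2 scale. Protein levels were not part of these data.

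Of the genes that KLF2 or KLF4 are known to regulate, CDKN1A fell past both limits. Of 9 listed genes, 6 were tested, and S1PR1, CCR7 and THBD had at most 5 counts in a library. CDKN1A, the cell cycle inhibitor p21 and a target of KLF4, was at 32.4, 29.4 and 30.8 CPM in shNT libraries and at 16.7, 16.1 and 16.1 CPM in shPRKCN libraries. The groups were well apart, and CDKN1A was the 1 gene past both limits, beside 10.6% of all genes as lower (log2 fold change -0.92, SE 0.067, edgeR adjusted p = 2e-19). By the adjusted p alone, 4 fell and 1 rose, beside 27.8% and 26.5% of all genes, and the median log2 fold change was -0.34. The following genes were named after their values were seen. The inhibitors CDKN1B (-0.29, SE 0.034, edgeR adjusted p = 4.6e-11) and CDKN1C (-0.40, SE 0.050, edgeR adjusted p = 2.1e-10) fell. ITGB7, an integrin of gut homing and myeloma adhesion, rose by 0.19 on the log2 scale (SE 0.030, edgeR adjusted p = 2.6e-07).

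In the TGF-β pathway, which induces KLF10 and KLF11, SMAD7 fell and ID1 rose past both limits. Of 14 listed genes, 11 were tested, 1 was past both limits as higher and 1 as lower, and by the adjusted p alone 5 rose and 3 fell, with a median log2 fold change of 0.13. Over all genes, 16.7% were past both limits and 54.2% passed the adjusted p alone. SMAD7, the inhibitory SMAD that KLF10 is known to repress, fell from 115 ± 4.51 to 62.8 ± 2.15 CPM (log2 fold change -0.87, SE 0.044, edgeR adjusted p = 1.1e-27). ID1, an inhibitor of basic helix-loop-helix factors, rose from 4.23 ± 0.476 to 7.21 ± 0.627 CPM (log2 fold change 0.77, SE 0.134, edgeR adjusted p = 1.3e-06). Named after their values were seen, the corepressor genes SKI (0.57, SE 0.058, edgeR adjusted p = 3e-13) and SKIL (-0.41, SE 0.059, edgeR adjusted p = 1.1e-08) moved in opposite directions. SKI was just under the fold limit, and over it without the second shNT library (0.60) or the first shPRKCN library (0.59).

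**Figure D4:**
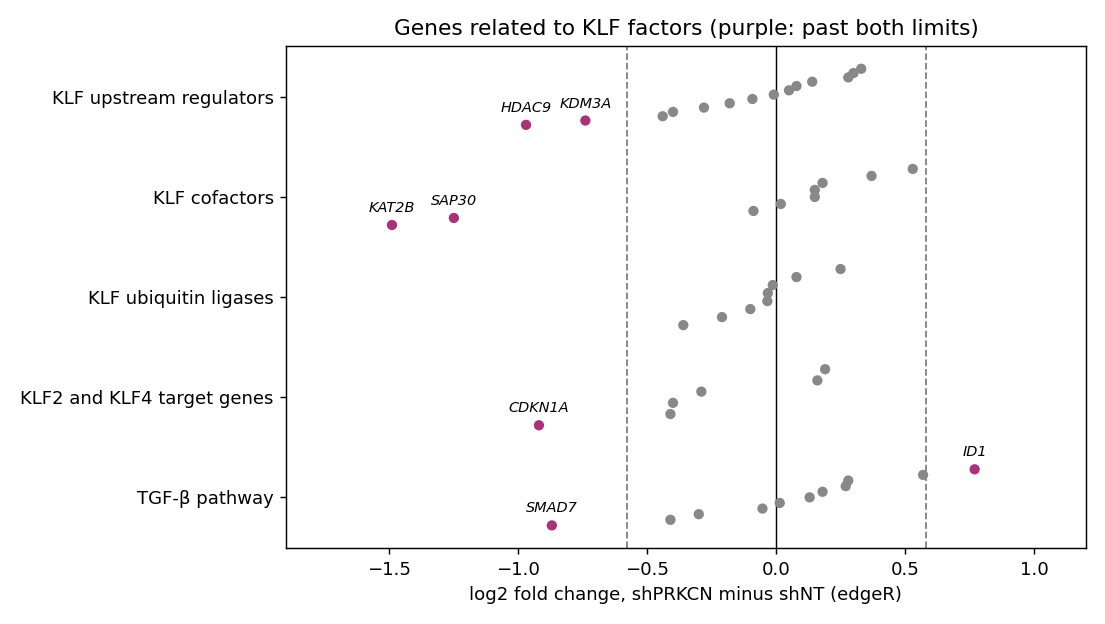
Log2 fold change (shPRKCN minus shNT, edgeR) of each tested gene in the lists of upstream regulators, cofactors, ubiquitin ligases, KLF2 and KLF4 target genes and TGF-β pathway genes, 1 row per list and 1 point per gene, with purple points past both limits. KAT2B (-1.49) and SAP30 (-1.25) lie farthest to the left, and ID1 (0.77) farthest to the right.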

How the data were processed

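RNA-seq was measured in 6 libraries of MM.1S cells. The authors deposited raw counts per gene and FPKM values of the same 21850 genes. The submitters' processing notes name FastQC, HISAT2, StringTie and the build GRCh38.p14. Versions and the strand setting are not given in the sources used here. Counts were tested with edgeR 4.0.16 in R 4.3.3 (quasi-likelihood test, TMM factors, filterByExpr, group as the only term), with Benjamini-Hochberg adjustment over 13971 genes. Calls required an absolute log2 fold change over 0.58 with the adjusted p below 0.05. DESeq2 1.42.0 and limma 3.58.1 on log2(FPKM + 1 or 0.1), other scalings and filters, a replicate block and leaving out each library were alternatives. The code of the edgeR, DESeq2 and limma fits was tested on simulated counts. FPKM compared levels between genes. Libraries of a group differed beyond counting noise (chi-square per degree of freedom 3.38 to 4.8, against 63.8 to 70.2 between groups). Depth was 35625564 to 37730003 counts per library. Promoter sequences and coordinates were from RefSeq.

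The KLF genes and the gene lists were chosen with earlier results of these data known. Named were all KLF and SP symbols, PRKD3, IRF4, the called genes of each list averaging 50 counts or more, and the 3 genes most like KLF2. Cell type markers, genes not tested and listed genes that overlap a KLF gene or PRKD3 were also named. Other genes are marked in the text as named after their values were seen. Shared replicate numbers were checked for pairing, and deviations of same-numbered libraries from their group means correlated at -0.0593, -0.02 and -0.0156.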

Additional observations from a re-analysis of the deposited data

How the results depend on the processing

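Over all genes, 2334 were called by edgeR, 963 by limma on log2(FPKM + 1), 945 with the added filter of an FPKM of at least 1 in 3 libraries, and 7577 with no fold limit. The added 1 shrinks changes of low genes by construction. The other settings gave 2058 to 2478 genes, and leaving out 1 library gave 2264 to 2313. With no fold limit the counts were 7 of 10 KLF genes (2 with it) and 3 of 4 tested Sp factors (0). They were 9 of 14 upstream regulators (2), 7 of 9 tested cofactors (2) and 3 of 8 ubiquitin ligases (0). For tested target genes they were 5 of 6 (1), and for tested TGF-β pathway genes 8 of 11 (2). Over all genes, 54.2% passed with no fold limit and 16.7% with it. The counts of KLF genes are read no further. None of the 10 KLF genes changed the sign of its log2 fold change under these alternatives, which is a description, since the genes were chosen with these values in view. SKI passed the fold limit with scaling by library size only (0.59) and without the second shNT library (0.60) or the first shPRKCN library (0.59). SP2, SP4 and TGFBR2 lost an adjusted p under 0.05 by limma on the log2(FPKM + 1) scale (0.11, 0.25 and 0.061). TGFBR2, of the TGF-β pathway list, was named after its values were seen, and its log2 fold change by edgeR was -0.30. The other scalings moved the median log2 fold change of all genes by 0.019 or less. Same-numbered libraries did not deviate together more than libraries with different numbers, whose correlations ran from -0.0489 to 0.0699. This check showed no pairing by number, but it cannot exclude that libraries were handled in matched sets. With the replicate number as a replicate block, 2317 genes and 2 KLF genes were past both limits and the log2 fold change of PRKD3 was -1.29. KLF4 and KLF9, at 42 to 263 counts per library, are the least precise of the 10.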
